A study of Mus musculus with 6 samples.

Results

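The RNA of a mouse heart culture that received a control adenovirus and then spent 24 h in hypoxia is described here, from its most abundant genes to the spread between its replicates. The libraries are the 3 of the series' 6 libraries that carry the labels Adv-NC and 24 h of hypoxia. Per the labels, the cells were primary cardiomyocytes from heart, that is, cells taken from the tissue and kept in culture, of wild-type (WT) genotype, and all libraries had batch number 1. The strain and age of the animals were not given, and the other 3 libraries, from cells given an adenovirus for ABHD11, were not compared with them. The labels do not say whether the replicates came from separate cultures or animals, so the spread between them may be technical.

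A cardiomyocyte is built around its sarcomeres, in which thick filaments of myosin pull on thin filaments of actin that are gated by tropomyosin and the troponins. Many of these proteins have atrial, ventricular, fetal and skeletal forms encoded by separate genes, and the choice among them marks the chamber and the age of a heart cell. The heart also holds fibroblasts that lay down collagen, endothelial cells, mural cells around the vessels, the mesothelial outer layer known as the epicardium, and leukocytes, and cells taken from the tissue can carry some of these neighbours into culture.

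The deposited expected counts added up to 18219247, 19544686 and 20338702 in replicates 1, 2 and 3. Levels are given as CPM, the counts of a gene per 1000000 counts of its library, so that 1 count was worth 0.0492 to 0.0549 CPM. Where levels of different genes are compared, CPM were divided by the length of the longest protein-coding transcript in kilobases (CPM per kb). Of 21741 gene symbols, 13952 were above 0 in all 3 libraries, 6014 were at 0 in all 3, 12000 had a mean of at least 1 CPM, 6285 of at least 20 CPM and 126 of at least 1000 CPM. Replicate 1 held more and replicate 2 fewer counts of long transcripts than the other libraries, which touches every long gene named and is described with the spread between replicates. Values are means ± SD over the 3 libraries (n = 3) unless a library is named. Abhd11, which encodes a mitochondrial hydrolase, stood at 32.1, 34.5 and 32.5 CPM in replicates 1, 2 and 3, the cells' own level under the control virus.

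The most abundant genes were those of protein synthesis, matrix, muscle and energy supply. The 40 genes with the highest mean CPM held 17.3% of all counts, and 37 of them were among the top 40 of each library. Sorted by what their products do, 7 genes of translation held 3.77% ± 0.232 of the counts, 9 genes of the extracellular matrix and its assembly held 3.54% ± 0.284 and 7 muscle genes held 2.68% ± 0.132. Matrix ranked above translation in replicate 1, with 3.72% against 3.51%, and below it in replicates 2 and 3, while muscle ranked next in each library. Then came 4 genes of mitochondrial respiration with 2.04% ± 0.0942, 4 stress genes with 1.73% ± 0.115, 4 glycolytic genes with 1.58% ± 0.0852 and 2 cytoskeletal genes with 0.601% ± 0.0558. Irf7, a transcription factor of the interferon response, stood alone in its class at 0.261% ± 0.00998 of the counts.

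**Figure D1:**
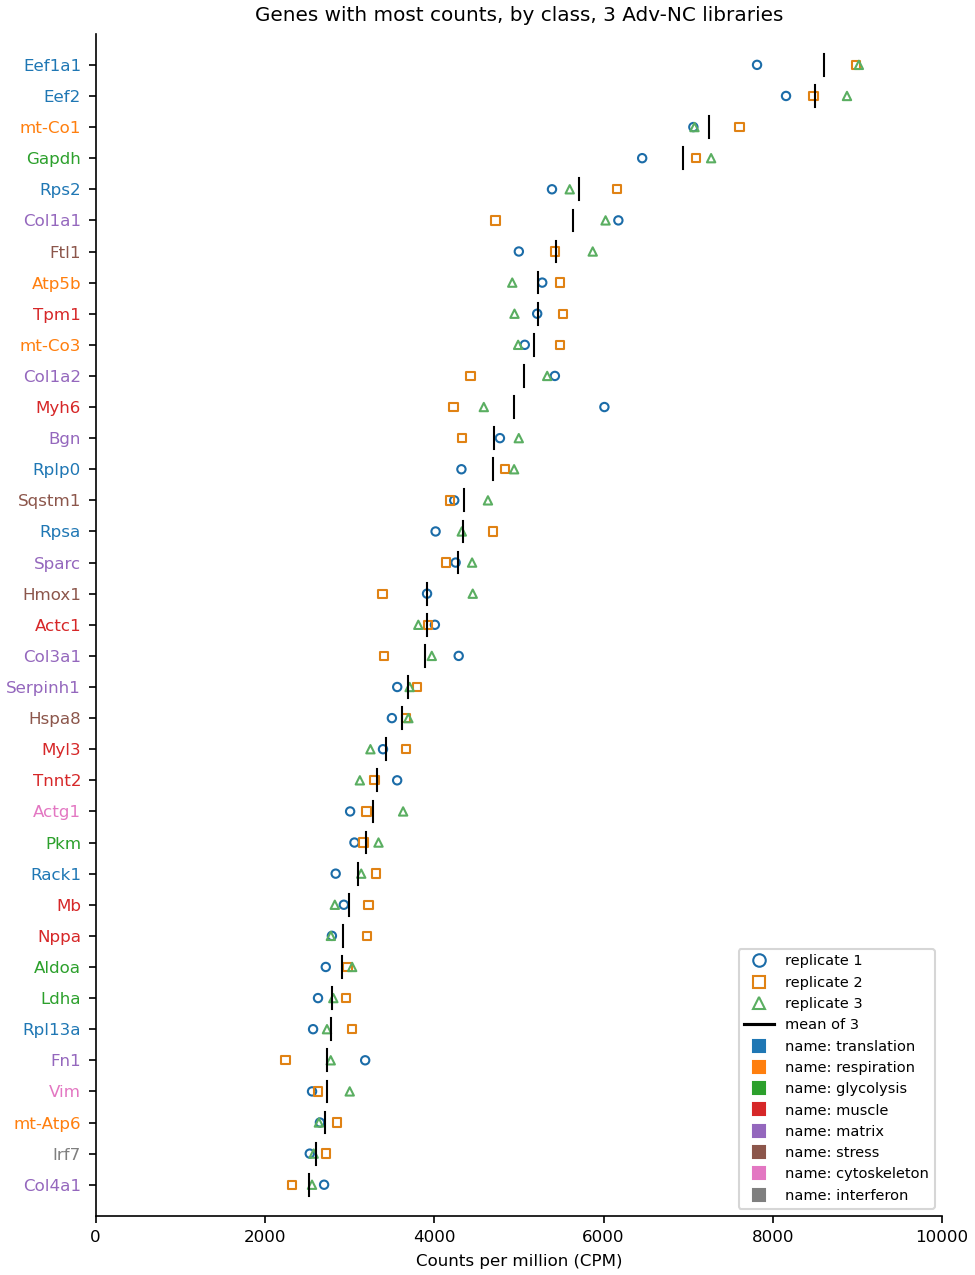
Of the 40 genes with the highest mean level, 37 are drawn, from Eef1a1 (8603 CPM) down to Col4a1 (2526 CPM), on a linear axis of CPM; each symbol is 1 of the 3 Adv-NC libraries, the black bar is their mean, and the colour of a name gives its class. Translation, matrix and muscle genes are interleaved along the list, and the libraries lie far apart for Myh6 (4226 to 6010.0 CPM) and Col1a1 (4725 to 6175 CPM).

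At the head of the list stood the elongation factors that bring aminoacyl-tRNA to the ribosome and move it along the message. Eef1a1 held 7813, 8980.1 and 9016 CPM in replicates 1, 2 and 3, and Eef2 held 8156, 8479 and 8875 CPM, so that replicate 1 was lowest for both. The mtDNA-encoded cytochrome oxidase subunit mt-Co1 stood at 7247 ± 312 CPM and the glycolytic enzyme Gapdh at 6939 ± 428 CPM. Counts rise with transcript length, and the order changed when CPM were divided by it. Per kb the leaders were the cytochrome oxidase subunit mt-Co3 (6609 ± 337 CPM per kb), the ferritin light chain Ftl1 (5613 ± 451), the ribosomal protein gene Rps2 (5224 ± 361), Gapdh (4887 ± 301) and Eef1a1 (4795 ± 381). The first muscle genes per kb were the ventricular light chain Myl3 at rank 8 (3666 ± 227 CPM per kb), the atrial natriuretic peptide Nppa at rank 10 (3382 ± 282), troponin T, Tnnt2, at rank 17 (2772 ± 185) and the oxygen-binding protein myoglobin, Mb, at rank 20 (2712 ± 187). Gapdh, Eef1a1, Ftl1, Rps2 and other ribosomal protein genes have near-identical pseudogene copies, so the levels of these genes depend on how shared reads were divided and are uncertain.

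The label was checked against the markers of heart muscle. Myh6, the fast alpha-myosin heavy chain (chr14:54941921-54966927, minus strand, GRCm38), held 6010.0, 4226 and 4586 CPM in replicates 1, 2 and 3, a mean of 4941 ± 943. Actc1, cardiac alpha-actin (chr2:114047282-114053548, minus strand), held 4008, 3929.8 and 3812 CPM. Tnnt2, cardiac troponin T (chr1:135836354-135852260, plus strand), held 3562, 3294 and 3121 CPM. These 3 were among the 26 genes with most counts, and replicate 1 was highest for each. Ttn, which encodes the giant spring protein of the sarcomere (chr2:76703980-76982547, minus strand), was far lower, at 100.5, 51.6 and 59.6 CPM, and replicate 1 stood apart from the other two. Spread over a transcript of 106824 bases, the mean of Ttn was 0.661 ± 0.246 CPM per kb, rank 11007, against 2772 ± 185 CPM per kb for Tnnt2. Another very long muscle gene, the calcium release channel Ryr2, was low per kb as well, at 7.02 ± 1.69 CPM per kb.

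All 30 genes of a cardiomyocyte list had a mean of at least 20 CPM, and 11 of them at least 1000 CPM. Over all 21741 symbols, 55.2% had a mean of at least 1 CPM, 28.9% of at least 20 CPM and 0.58% of at least 1000 CPM, the background for this and the following lists. The cardiomyocyte genes held 4.21%, 4.04% and 3.77% of the counts in replicates 1, 2 and 3. Leaving out each library in turn gave means of 3.90% to 4.12%, which lie within 1 SD by construction. Tropomyosin 1, Tpm1, made up 13.1% of the list's share, and its smooth muscle and non-muscle splice forms cannot be told apart here. The median of the list was 298 ± 21.1 CPM per kb, beside 6.81 CPM per kb over all genes with a mean of at least 1 CPM. Of its calcium-handling genes, the calcium pump Atp2a2 had 548 ± 84.6 CPM per kb, its inhibitor phospholamban, Pln, 222 ± 20.2 and the calcium-storing protein Casq2 146 ± 17.4. The cardiac transcription factors Gata4 and Nkx2-5 had 112 ± 6.202 and 52.4 ± 3.34 CPM per kb. Every marker of the list of 30 was thus present. Of a separate list of 16 cardiac transcription factors, led by Gata4, 15 had at least 1 CPM, 10 had at least 20 CPM and 1 was at 0 counts. Its median was 8.77 ± 1.29 CPM per kb, beside the 6.81 of all genes with a mean of at least 1 CPM. In bulk RNA, fewer cells of a type and less RNA per cell cannot be told apart, so the shares given are of counts and not of cells.

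Fibroblast genes stood beside the muscle genes. All 20 genes of a fibroblast list had a mean of at least 1 CPM, 18 of at least 20 CPM and 6 of at least 1000 CPM, with a median of 141 ± 8.99 CPM per kb. The list held 2.85%, 2.35% and 2.75% of the counts in replicates 1, 2 and 3. The cardiomyocyte list, with 30 genes against 20, held 1.48, 1.72 and 1.37 times as much. A summed share grows with the number of genes listed, so this ratio is no measure of which cell type prevailed. Collagen I, the main fibre of connective tissue, led the fibroblast list, with Col1a1 at 6175, 4725 and 6024 CPM and Col1a2 at 5425, 4427 and 5334 CPM. Col1a1 had more counts than Myh6 in each library, and per kb it was also higher within each library while the ranges overlapped, at 1041, 797 and 1016 CPM per kb for Col1a1 and 983, 691 and 750.1 for Myh6. Sparc, a collagen-binding matrix protein, had 1860.4 ± 68.2 CPM per kb, and periostin, Postn, a matrix protein of activated fibroblasts, had 128 ± 19.5. Genes that mark the lineage rather than its matrix were lower, with the transcription factor Tcf21 at 24.1 ± 0.354, the growth factor receptor Pdgfra at 15.96 ± 2.39 and the surface protein Thy1 at 22.7 ± 1.799 CPM per kb.

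Collagens were present as a set. All 18 collagen genes listed had at least 20 CPM and 7 had at least 1000 CPM, and together they held 2.61%, 2.08% and 2.48% of the counts. The network-forming collagen IV of basement membranes followed the fibrillar genes, with Col4a1 at 382 ± 28.9 and Col4a2 at 306 ± 40.2 CPM per kb. Of 30 other matrix genes, 28 had at least 20 CPM, with the proteoglycan Bgn (1943 ± 141 CPM per kb), Sparc and the metalloprotease inhibitor Timp1 (910.5 ± 45.4) among the highest per kb. Sarcomere genes, 31 in number, held 3.67%, 3.50% and 3.33% of the counts, 1.48 ± 0.182 times the share of the 18 collagens. Tpm1 made up 14.9% of the sarcomere share, and this ratio too depends on how many genes each list holds. Replicate 2 had the lowest collagen share and the highest such ratio, 1.68.

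**Figure D2:**
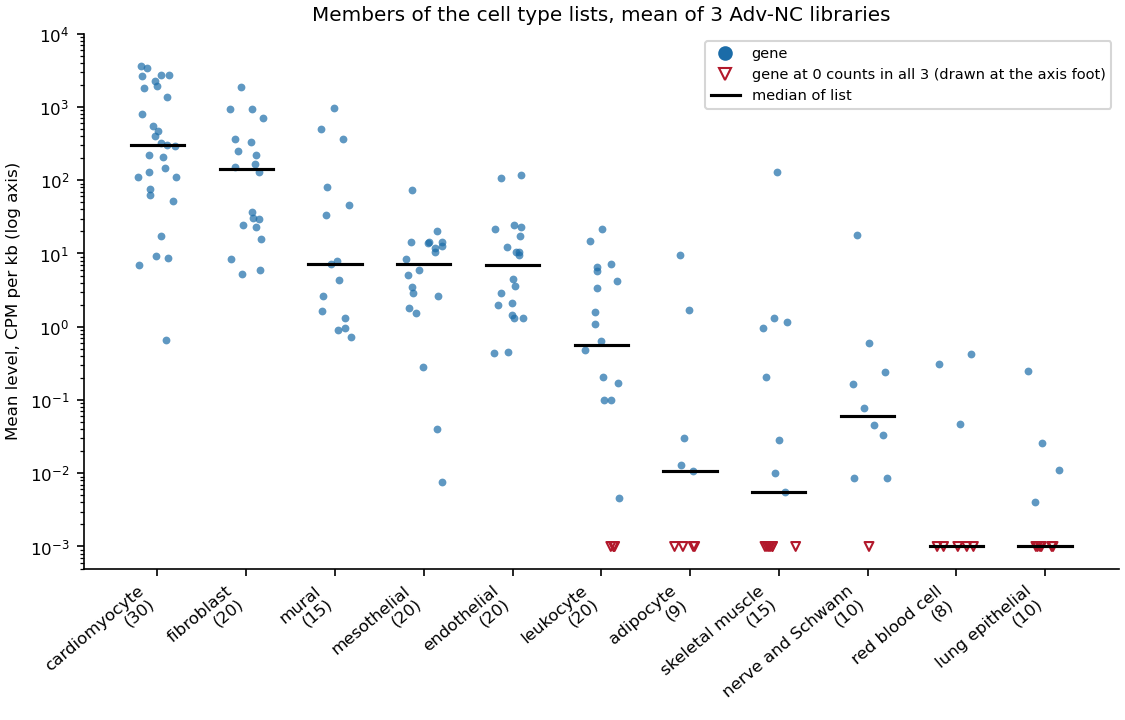
Each point is 1 gene of a cell type list at its mean level over the 3 Adv-NC libraries, in CPM per kb on a log axis; bars are list medians, numbers in brackets are genes listed, and open triangles at the foot of the axis are genes at 0 counts in all 3 libraries. Medians run from 298 for cardiomyocyte and 141 for fibroblast genes through 7.23, 6.997 and 6.92 for mesothelial, mural and endothelial genes to 0.556 for leukocyte genes.

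Vascular genes were detected at lower levels. All 20 endothelial genes had at least 1 CPM and 10 had at least 20 CPM, and the list held 0.0975%, 0.0917% and 0.102% of the counts in replicates 1, 2 and 3. Its median of 6.92 ± 0.224 CPM per kb lay near the 6.81 of all genes above 1 CPM. Endoglin, Eng, a co-receptor for TGF-beta family ligands, stood at 415, 374 and 433 CPM and made up 41.99% of the list's share. The adhesion proteins of the vessel lining were lower, with Cdh5 at 93.6, 77.8 and 89.6 CPM and Pecam1 at 32.8, 36.9 and 38.01 CPM. The VEGF receptor Kdr had 14.9, 9.82 and 12.9 CPM. These genes were present in every library. The share of the cardiomyocyte list was 41.4 ± 3.79 times that of the endothelial list, with 30 and 20 genes listed.

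The list for mural cells, the smooth muscle cells and pericytes around vessels, fell into an abundant and a scarce set. It held 0.474%, 0.501% and 0.504% of the counts, and smooth muscle actin, Acta2, at 1853, 2059 and 2071 CPM, made up 40.4% of that share. Acta2 (980.0 ± 60.1 CPM per kb), the actin-binding protein transgelin, Tagln (501 ± 49.8), and the intermediate filament desmin, Des (370.2 ± 14.3), were high. Genes of mature smooth muscle and pericytes were low, with smooth muscle myosin Myh11 at 0.714 ± 0.0953, calponin Cnn1 at 7.26 ± 1.09 and the pericyte gene Rgs5 at 1.33 ± 0.245 CPM per kb. Desmin also stands in the sarcomere list, and Acta2 and Tagln are known in contractile fibroblasts and immature heart muscle as well, so the share of the list cannot be assigned to mural cells. Pdgfrb, a receptor that pericytes and fibroblasts share, had 81.2 ± 5.94 CPM per kb.

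Mesothelial genes were mostly present and held a small share of the counts. Of 20 genes listed, 17 had at least 1 CPM and 11 had at least 20 CPM, and the list held 0.0546%, 0.0507% and 0.0542% of the counts, with a median of 7.23 ± 0.436 CPM per kb, near those of the endothelial list and of all genes above 1 CPM. The uroplakin Upk3b, a surface protein of the mesothelium, held 48.3, 53.9 and 49.6 CPM in replicates 1, 2 and 3. Mesothelin, Msln, held 46.4, 39.2 and 47.3 CPM. The CV was 5.78% for Upk3b and 10.02% for Msln, with replicate 2 lowest for the latter. Aldh1a2, which makes retinoic acid in the epicardium, had 12.8 ± 0.252 CPM per kb, and Wt1, an epicardial transcription factor, had 1.796 ± 0.127. Keratin 18, Krt18, which simple epithelia also use, made up 20.2% of the list's share at 107 ± 7.47 CPM.

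Other cell types left traces or no counts. Of 20 leukocyte genes, 11 had at least 1 CPM, and the macrophage gene Cd68 alone had at least 20 CPM, at 24.6, 22.6 and 32.9 CPM. The list held 0.00894% to 0.0109% of the counts. The complement genes C1qa, C1qb and C1qc of macrophages stood at 4.39 ± 0.0989, 7.17 ± 0.773 and 7.02 ± 1.57 CPM, the pan-leukocyte gene Ptprc at 0.4997 ± 0.0784 CPM, and the lymphocyte genes Cd3e, Ms4a1 and Nkg7 at 0 counts in all 3 libraries. A count of 0 allows up to 3 counts, which is 0.148 to 0.165 CPM. None of 8 red blood cell genes and none of 10 lung epithelial genes reached 1 CPM, and 5 and 6 of them, respectively, were at 0. Of 10 nerve genes only the tubulin gene Tubb3 reached 1 CPM (33.1 ± 3.42 CPM), and of 9 adipocyte genes only the lipid carrier Fabp4 and the nuclear receptor Pparg did. Of 15 skeletal muscle genes only Ckm and Acta1, which heart muscle also uses, reached 1 CPM, and the myogenic factors Myod1, Myog, Myf5 and Myf6 were at 0.

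The choice among related genes was measured as the share of each gene in the summed CPM per kb of its family. The counts are per gene and hold no splice forms, so this is a choice of genes only. In bulk RNA a family share also sums over all cell types of the culture, so it is not the choice made within a heart cell. Of 40 families, 15 gave more than 90% to 1 gene in every library, and in 9 the leading gene had a mean share under 60%. The order of the first and the second gene was the same in all 3 libraries for 36 families, and their levels overlapped in 1, creatine kinase.

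The myosin heavy chain was almost wholly of the alpha form. Myh6 made up 99.7%, 99.6% and 99.6% of the family in replicates 1, 2 and 3. Myh7, the slow beta form, encoded beside it on chromosome 14 (chr14:54970684-54994626, minus strand), held 16.1, 17.9 and 15.6 CPM, and its share was 0.336% ± 0.0751. The ratio per kb of Myh6 to Myh7 was 380, 241 and 299, and in the mouse heart the alpha form is known to predominate after birth. Of the 6 other heavy chain genes of striated muscle, Myh2, Myh3 and Myh4 were at 0 counts and Myh7b had 0.207 ± 0.0559 CPM per kb. In actin, cardiac Actc1 led with 45.7%, 42.96% and 40.3%, followed by cytoplasmic Actg1 (27.1% ± 1.68), smooth muscle Acta2 (15.8% ± 0.503) and cytoplasmic Actb (13.7% ± 0.796). Skeletal Acta1, known in fetal and stressed heart muscle, held 1.87, 2.098 and 1.82 CPM, a share of 0.0215% ± 0.00188. These actins are nearly alike in their coding sequence, and the split of their shared reads is uncertain.

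Promoters of both pairs, Myh6 with Myh7 and Actc1 with Acta1, are shown because 1 gene of each pair was at least 100 times the other per kb in every library. Each window runs from 250 bases before to 50 bases after the start of the gene, 5′ to 3′ on the gene's strand, from RefSeq on GRCm38.p6, at chr14:54966558-54966857 for Myh6, chr14:54994577-54994876 for Myh7, chr2:114052826-114053125 for Actc1 and chr8:123894726-123895025 for Acta1, all on the minus strand. Capitals mark the TATA motif TATAAA and the CArG box, the site of serum response factor, both searched on both strands. Over all 32851 such windows, 13.6% held TATAAA and 1.63% a CArG box. The window of Myh6 held 1 TATAAA, that of Myh7 neither motif, and those of Actc1 and Acta1 each held 1 of both. In Myh6 and Actc1 TATAAA lay after the annotated start, so what a window holds depends on where that start was placed.
Myh6: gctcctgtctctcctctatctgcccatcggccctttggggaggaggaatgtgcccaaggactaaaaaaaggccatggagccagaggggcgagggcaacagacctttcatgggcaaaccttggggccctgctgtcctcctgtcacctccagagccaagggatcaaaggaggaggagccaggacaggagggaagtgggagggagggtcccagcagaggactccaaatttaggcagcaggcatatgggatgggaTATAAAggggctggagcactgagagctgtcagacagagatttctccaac
Myh7: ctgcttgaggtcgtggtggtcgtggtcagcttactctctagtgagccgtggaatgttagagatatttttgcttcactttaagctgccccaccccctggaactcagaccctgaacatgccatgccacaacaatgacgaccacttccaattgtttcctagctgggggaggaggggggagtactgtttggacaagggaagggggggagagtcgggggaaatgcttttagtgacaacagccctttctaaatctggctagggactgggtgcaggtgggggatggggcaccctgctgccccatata
Actc1: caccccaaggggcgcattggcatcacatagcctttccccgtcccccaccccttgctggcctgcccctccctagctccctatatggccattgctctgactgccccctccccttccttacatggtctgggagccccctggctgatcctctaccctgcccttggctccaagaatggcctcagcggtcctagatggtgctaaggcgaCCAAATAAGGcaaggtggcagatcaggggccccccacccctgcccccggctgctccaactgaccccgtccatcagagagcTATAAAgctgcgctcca
Acta1: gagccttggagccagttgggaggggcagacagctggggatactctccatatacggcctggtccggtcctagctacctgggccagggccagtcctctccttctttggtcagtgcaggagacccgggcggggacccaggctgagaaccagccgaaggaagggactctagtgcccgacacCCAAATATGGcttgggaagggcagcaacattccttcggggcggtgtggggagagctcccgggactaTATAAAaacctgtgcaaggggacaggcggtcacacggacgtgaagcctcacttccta
The motifs did not follow the level within the actin pair, since Acta1, with 1.33 CPM per kb, had the same motifs as Actc1. A motif is a match of letters only, and its absence says only that these letters are not in this window.

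The troponins were mainly of the genes that the heart uses. Tnnt2 made up 99.7% ± 0.0884 of the troponin T family, and Tnnc1, the slow and cardiac troponin C, all of its family, with Tnnc2 at 0 counts. Troponin I, the inhibitory subunit, was 92.8%, 92.3% and 92.2% cardiac Tnni3, and Tnni1, the slow skeletal form that the fetal heart uses, made up 7.19%, 7.58% and 7.77%. Tnni1 was thus expressed in each library, at 206, 229.8 and 201 CPM. Tropomyosin 1, Tpm1, held 80.9% ± 1.21 of its family, and its cardiac, smooth muscle and non-muscle splice forms cannot be told apart here. Among the regulatory light chains of myosin, ventricular Myl2 made up 57.9%, 55.7% and 56.2% and atrial Myl7 28.7%, 29.7% and 29.3%. Among the essential light chains, ventricular Myl3 made up 80.9% ± 0.345 and Myl4, the atrial and fetal form, 12.6% ± 0.102. The lead of Myl2 depends on the length used, since Myl7 leads when counts are divided by the union of all exons, with Myl2 then at 39.1%.

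**Figure D3:**
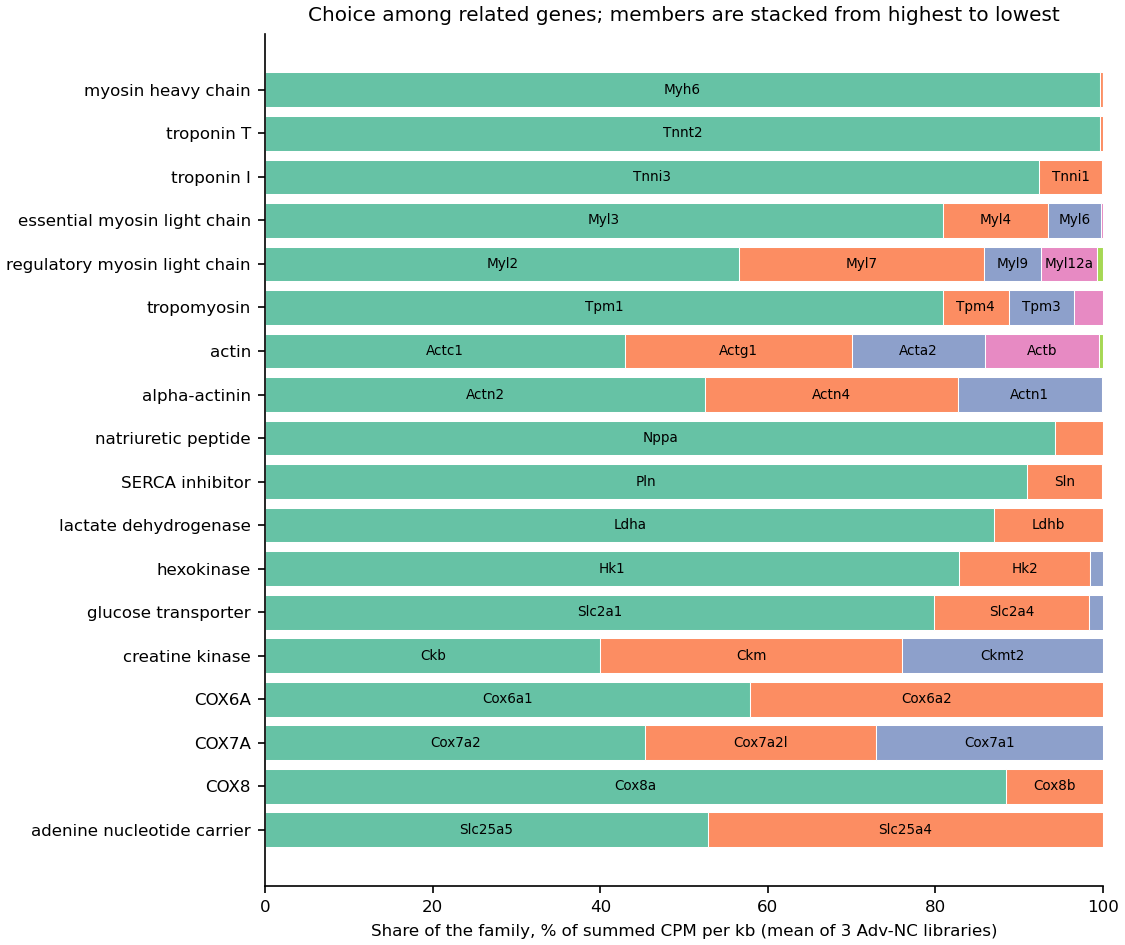
Each bar is 1 family of related genes, split into the share of each member in the summed CPM per kb, as the mean of the 3 Adv-NC libraries, with members stacked from the highest to the lowest. Myh6, Tnnt2 and Tnni3 fill over 90% of their bars, while actin, the regulatory light chains, creatine kinase and the COX6A and COX7A subunits are divided.

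Atrial and ventricular genes were both present. Atrial genes, 11 in number, held 0.411%, 0.462% and 0.405% of the counts, of which the natriuretic peptide Nppa made up 68.7%. Ventricular genes, 8 in number, held 0.516%, 0.547% and 0.496%, of which Myl3 made up 66.1%. The order of the lists turned when members were weighed alike, since the median was 12.3 ± 2.93 CPM per kb for atrial and 3.05 ± 0.567 for ventricular genes, and 7 of 11 atrial against 2 of 8 ventricular genes had at least 20 CPM. The ventricular transcription factor Irx4 had 7.67 ± 0.952 CPM per kb, and Bmp10, an atrial growth factor, had 12.3 ± 2.93. Sarcolipin, Sln, an atrial inhibitor of the calcium pump, held 8.97% ± 1.26 of a family led by Pln with 90.96% ± 1.37. In the natriuretic peptides, hormones that heart muscle secretes under load, Nppa held 94.3% ± 0.145 and Nppb 5.74% ± 0.144. Of 10 genes more active before or soon after birth, 9 had at least 1 CPM and 3 had at least 20 CPM, the latter a share near the 28.9% of all symbols. Those 3 were Tnni1, the growth factor Igf2 at 251, 239.9 and 268 CPM and the mRNA-binding protein Igf2bp1 at 28.5 ± 1.399 CPM.

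Enzymes and carriers of energy metabolism mixed heart forms with general forms. The heart and muscle subunit Cox6a2 of cytochrome oxidase made up 42.6%, 40.8% and 42.9% of its family against the general Cox6a1, and Cox7a1 made up 27.1% ± 0.917 and Cox8b 11.5% ± 1.12 of theirs. The muscle enolase Eno3 held 33.6% ± 2.46 beside Eno1 with 66.2% ± 2.49, and the muscle mutase Pgam2 held 57.4% ± 1.93 beside Pgam1. The ADP/ATP carrier was divided between Slc25a5 (52.8% ± 2.17) and the heart and muscle form Slc25a4 (47.2% ± 2.18). In creatine kinase, the brain form Ckb (40.01% ± 1.15) and the muscle form Ckm (35.96% ± 0.464) were close and the mitochondrial form Ckmt2 (23.99% ± 1.37) was lower, and Ckm leads when other lengths or none are used. The order also turns in other families just named. Eno3 leads with the union of exons, and Pgam1, Slc25a4 and Cox7a2l, the last in place of Cox7a2, lead with no length. Phosphofructokinase, the committed step of glycolysis, was divided, with the muscle form Pfkm at 45.7% ± 2.58, Pfkp at 27.4% ± 1.11 and Pfkl at 26.9% ± 1.53, and Pfkp leads with the median transcript length. General forms led in glucose uptake and in other steps of glycolysis, with Slc2a1 at 79.9% ± 2.03 against the insulin-responsive Slc2a4, hexokinase Hk1 at 82.9% ± 0.2702, and Ldha, the lactate-forming dehydrogenase, at 87.03% ± 0.968. Among the CPT1 genes, which serve the entry of fatty acids into mitochondria, the muscle gene Cpt1b led with 79.6% ± 2.43 of the family's RNA per kb.

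Genes that hypoxia is known to induce were all present. All 30 genes of a hypoxia and glycolysis list had at least 1 CPM, 26 had at least 20 CPM and 8 had at least 1000 CPM, and the list held 2.38%, 2.55% and 2.61% of the counts. Most of that share came from glycolytic enzymes, with Gapdh, Aldoa, Ldha, Pkm, Eno1, Tpi1, Pgk1 and Gpi1 each above 1000 CPM. The growth factor Vegfa held 137, 124 and 127 CPM, the oxygen sensor Egln3 36.3, 39.9 and 44.6 CPM, and the mitophagy receptor Bnip3 36.9, 41.03 and 40.2 CPM. The membrane carbonic anhydrase Car9 was low, at 2.52, 4.14 and 4.67 CPM. Without a library kept in normal oxygen, none of these levels shows a response to hypoxia.

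Genes against oxidative stress were abundant. All 27 had at least 20 CPM and 6 had at least 1000 CPM, and they held 2.46%, 2.47% and 2.74% of the counts, with a median of 232 ± 17.97 CPM per kb. After ferritin Ftl1 came the metallothionein Mt2 (2799.8 ± 137 CPM per kb), heme oxygenase Hmox1 (2498 ± 339), the autophagy adaptor Sqstm1 (1629 ± 91.5) and ferritin heavy chain Fth1 (1341 ± 148). Hmox1, which breaks down heme, held 3915, 3390.4 and 4455 CPM, lowest in replicate 2 and highest in replicate 3. Gpx4, the peroxidase that protects membrane lipids and is known as the main guard against ferroptosis, held 776 ± 75.1 CPM per kb. Slc7a11, the cystine importer that feeds glutathione synthesis, was the lowest member per kb, at 5.11 ± 1.78 CPM per kb, and held 64.5, 31.8 and 45.1 CPM. Heat shock genes held 1.34%, 1.33% and 1.36% of the counts, and 21 of 22 had at least 20 CPM, led by the constitutive chaperone Hspa8 (1512 ± 43.7 CPM per kb) and the small heat shock protein Hspb1 (1002 ± 35.9). The stress-induced pair Hspa1a and Hspa1b, whose near-identical copies share reads, summed to 1132, 931 and 1169 CPM.

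Genes induced by interferon, a set listed after the gene table had been seen because Irf7 ranked 39th, were present throughout. All 34 had at least 1 CPM and 30 had at least 20 CPM, and they held 0.742%, 0.759% and 0.744% of the counts. Irf7, the transcription factor that amplifies interferon production, held 2529.8, 2721 and 2576 CPM and made up 34.9% of that share. Ifitm3, which blocks virus entry, had 1657 ± 87.4 CPM per kb, the tetherin Bst2 514 ± 4.21 and the ubiquitin-like modifier Isg15 289 ± 25.4. At the low end stood the RNA-sensing kinase Eif2ak2 with 2.38 ± 0.354 and the nucleotide kinase Cmpk2 with 2.47 ± 0.169 CPM per kb. The libraries differed little for this set. Interferons themselves were near or at 0: Ifnb1 held 4, 12 and 0 counts in replicates 1, 2 and 3, Ifnl2 had 0 in all 3, and Ifna4 and Ifng had under 1 CPM. The receptor genes Ifnar1 and Ifnar2 stood at 69.7 ± 3.43 and 82.4 ± 4.74 CPM. Without cells free of virus, these levels show no response to the virus. Antigen presentation by MHC class I, which interferon also induces, held 0.951%, 0.946% and 0.974% of the counts over 13 genes, led by B2m (2586 ± 229 CPM per kb), H2-K1 (1488 ± 32.1) and H2-D1 (1162 ± 14.3).

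**Figure D4:**
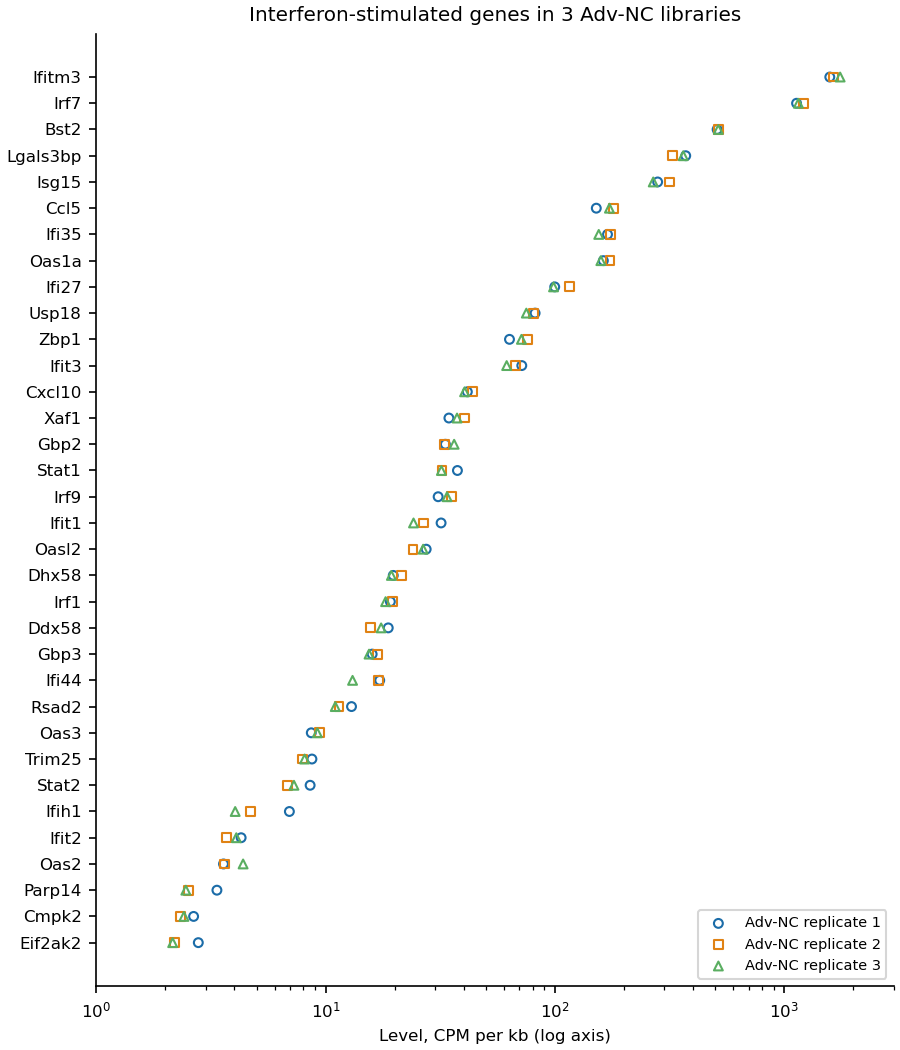
Level of 34 interferon-stimulated genes in CPM per kb on a log axis, from Ifitm3 (1657) to Eif2ak2 (2.38) by mean; each symbol is 1 of the 3 Adv-NC libraries. The 3 symbols of a gene lie close together for most genes, and Ifih1 is among those farthest apart, with replicate 1 highest.

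The promoters of Isg15 and Oas1a, the latter an RNA-sensing enzyme with 306, 328 and 299 CPM, are shown with a motif that interferon regulatory factors bind, GAAA followed after 2 bases by GAAA, in capitals and searched on both strands. The windows are as above, at chr4:156200769-156201068 and chr5:120907476-120907775, both on the minus strand. Isg15 held the motif at 3 overlapping places and Oas1a at 2, while 3.44% of all windows held it at any place. The promoters of the other genes of the set, Irf7 among them, were not examined, so these 2 say nothing about the set.
Isg15: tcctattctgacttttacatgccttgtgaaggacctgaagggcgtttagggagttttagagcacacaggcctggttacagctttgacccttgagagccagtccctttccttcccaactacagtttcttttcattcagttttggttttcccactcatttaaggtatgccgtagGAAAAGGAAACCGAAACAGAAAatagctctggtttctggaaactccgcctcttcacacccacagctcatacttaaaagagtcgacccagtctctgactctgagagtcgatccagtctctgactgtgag
Oas1a: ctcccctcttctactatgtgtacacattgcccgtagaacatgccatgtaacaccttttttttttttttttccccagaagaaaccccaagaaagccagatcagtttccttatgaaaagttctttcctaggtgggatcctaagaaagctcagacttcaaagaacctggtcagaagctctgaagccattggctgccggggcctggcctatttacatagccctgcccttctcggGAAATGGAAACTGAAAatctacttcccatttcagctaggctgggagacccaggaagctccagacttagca
Isg15 held 212, 239.8 and 203 CPM, highest in replicate 2.

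The virus itself needs cell surface receptors, and 5 of 6 listed genes for its entry had at least 20 CPM. Cxadr, the coxsackievirus and adenovirus receptor, held 44.3, 34.6 and 38.1 CPM. The integrins that take part in virus uptake were more abundant, with Itgb5 at 664, 689 and 669 CPM and Itgav at 59.9 ± 12.2 CPM. The remaining gene, Cd46, whose human protein is a receptor for some adenoviruses, held 1, 3 and 2 counts, at or under the floor of 3. Genes of cell division were present: all 15 listed had at least 1 CPM and 8 had at least 20 CPM, with a median of 9.05 ± 1.08 CPM per kb, and they held 0.0527%, 0.0584% and 0.0544% of the counts, with the proliferation marker Mki67 at 14.6, 8.903 and 12.05 CPM and the replication clamp Pcna at 96.2, 109.6 and 94.4 CPM. Which cells divided cannot be told from bulk RNA. Of the Y-linked genes, Ddx3y, Eif2s3y, Uty and Kdm5d held 8.44 ± 1.68, 8.103 ± 0.8901, 4.95 ± 0.832 and 3.64 ± 0.963 CPM, so that the libraries held RNA of male cells.

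The replicates were alike over most genes. Across 12000 genes with a mean of at least 1 CPM, Pearson's r of log2(CPM + 0.5) was 0.991 between replicates 1 and 2, 0.992 between 1 and 3 and 0.994 between 2 and 3. Genes are not independent replicates, and these values describe likeness across genes only. More than 2-fold differences were found for 50, 69 and 19 genes in those pairs. The median SD over the 3 libraries was 0.13 on the log2 scale, the median coefficient of variation (CV, the SD over the mean) was 9.04%, and the highest library exceeded the lowest by more than 2-fold for 110 genes, 0.917% of them. No libraries were copies of each other, since chi-square over its degrees of freedom was 13.8, 10.1 and 9.36, well above the 1 that sampling alone gives. The common dispersion estimated by edgeR was 0.00938, a biological coefficient of variation of 9.69%, and without replicate 1 it was 0.00608, or 7.80%.

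Spread fell with abundance and then levelled off. The median CV was 18.99% for genes of 1 to 5 CPM, where counting alone gives 14.1%, and 11.3% for 5 to 20 CPM, where it gives 6.84%. It was 7.21% for 20 to 100 CPM, 5.93% for 100 to 1000 CPM and 6.75% above 1000 CPM, where counting gives 3.55%, 1.67% and 0.531%. For abundant genes the spread was therefore not that of counting. Of the leading muscle genes Actc1 had a CV of 2.52% and Myl2 of 2.41%, while Myh6 had 19.1% and Ttn 37.2%.

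The deviations of replicates 1 and 2 went with transcript length, though the CVs of the short muscle genes differed among themselves. Among genes with a mean of at least 20 CPM, replicate 1 stood below the mean of the other two libraries by a median of -0.12 on the log2 scale for 371 genes with transcripts of up to 1 kb. It stood above them by 0.28 for 283 genes with transcripts over 8 kb, of which 95.8% were higher in replicate 1. Replicate 2 ran the other way, from 0.15 for the shortest to -0.23 for the longest. Replicate 3 stayed between -0.01 and -0.08. The pattern was seen with a minimum of 1 CPM, with the union of exons as length, and without ribosomal, sarcomere and mtDNA genes, where replicate 1 had 0.28 again over 279 genes above 8 kb. It touches the values given above: Myh6 has 6113 bases, Col1a1 5930, Fn1 8315 and Ttn 106824, while Actc1 has 1473 and Myl2 889. As a median over list members, collagen genes stood 0.22 above the other libraries in replicate 1 and -0.28 from them in replicate 2, and ribosomal protein genes -0.19 in replicate 1 and 0.17 above them in replicate 2. What lies behind the pattern was not tested.

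**Figure D5:**
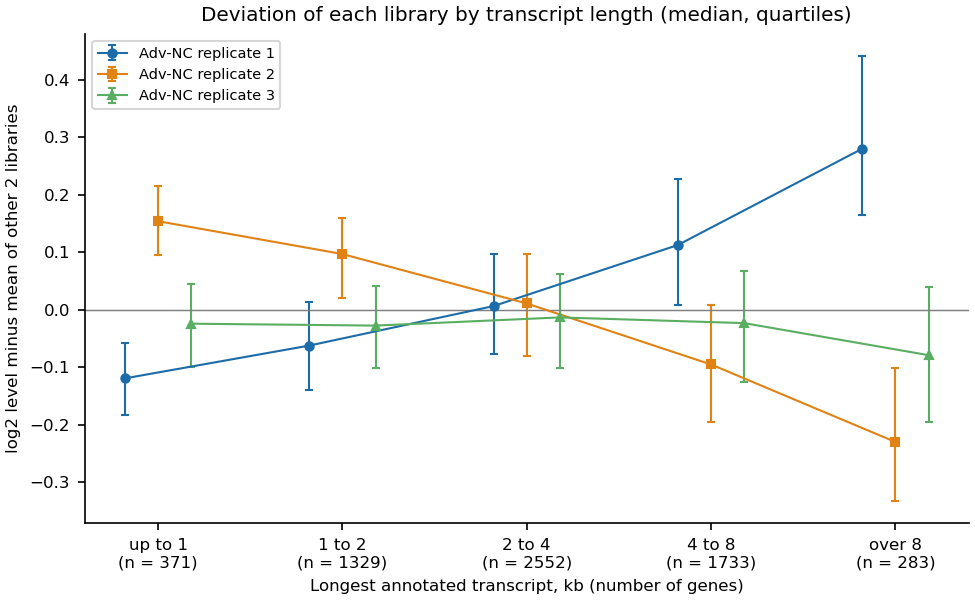
Deviation of each Adv-NC library from the mean of the other 2 libraries, as the log2 level of genes with at least 20 CPM, by length of the longest annotated transcript; points are medians, bars run from the lower to the upper quartile, and numbers in brackets are genes. Replicate 1 rises from -0.12 to 0.28, replicate 2 falls from 0.15 to -0.23, and replicate 3 stays near 0.

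The genes with the largest spread were mostly long. Of the 20 with the largest SD on the log2 scale among 6285 genes of at least 20 CPM, 17 were highest in replicate 1 and 16 had transcripts over 4000 bases, against 37.9% and 32.1% of all 6285. Their median length was 9223 bases, against 3035 over all 6285. They included Lnpep, a membrane peptidase (40.3, 21.9 and 19.7 CPM), Macf1, which crosslinks microtubules and actin (77.99, 45.4 and 48.7 CPM), the matrix proteoglycan Vcan (102, 55.97 and 71.8 CPM), Slc7a11 and Ttn. Shorter genes among them were Cyp1b1, a cytochrome P450 oxidase, at 63.6, 36.1 and 70.3 CPM, and Ptgs2, the inducible cyclooxygenase, at 126, 68.05 and 106 CPM, both lowest in replicate 2. At the other end stood the deubiquitinating enzyme Usp5, at 257, 257 and 258 CPM, and Lrwd1, at 45.8, 45.8 and 45.9 CPM. Both were picked as the extremes of 6285 genes, so their small spread is a description only.

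Some of the large spreads lay in genes whose reads are shared. Derpc had the largest SD, with 18.8, 40.98 and 3.34 CPM, and its sum with Chtf8, with which it shares a transcript, was 222, 246 and 231 CPM, a CV of 5.18%. Nnt, whose symbol stood on more than 1 row, had 28.4, 51.5 and 38.6 CPM in the row used and a CV of 4.30% when the rows were summed. Srp54b, also among the 20, has near-identical copies, and the sum of Srp54a, Srp54b and Srp54c kept a CV of 16.1%. The mtDNA-encoded mt-Nd6, on the opposite strand to the other mitochondrial mRNAs, held 257, 251 and 115 CPM, and its neighbour mt-Nd5, which overlaps its end, held 940.5, 925 and 567 CPM. Replicate 3 was lowest for both, while mt-Co1 held 7061, 7607 and 7074 CPM with no such drop. The sum of mt-Nd5 and mt-Nd6 was 1198, 1176 and 681 CPM in replicates 1, 2 and 3, a CV of 28.7%. Whether the counting used strand is not known, and without it reads from the stretch where such a pair overlaps cannot be separated. The sum was low in replicate 3 as well, and what lies behind that was not tested.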

How the data were processed

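RNA of the 3 Adv-NC libraries was measured by sequencing. The values deposited by the authors were unscaled expected counts, 1 per symbol. The tools named, per the submitters' processing notes, were Trimmomatic 0.39, HISAT2, RSEM and DESeq2, with mm10 as build and no statement of which step each served. Annotation, read filters and strand setting were not given. Expected counts, of which 9.68% to 10.2% of those above 0 were fractional, were rounded to whole numbers. Of 21763 rows, 22 repeated a symbol, and the row with most counts was used.

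CPM were computed on column sums in Python 3.11.15 with pandas 2.3.3. Of the symbols, 21478 were matched to GENCODE M21 (GRCm38), 405 of them through synonyms, for coordinates and lengths. The dispersion was estimated with edgeR 4.0.16 in R 4.3.3 on TMM-scaled libraries with an intercept-only design, which was tested on simulated data. SDs of log2 values used a pseudocount of 0.5 CPM. With 1 group of 3 libraries no test was made, since the smallest two-sided exact paired p is 0.25. Floors of 3 counts cover counting error only.

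Named genes were the 40 with the highest CPM, the 20 highest per kb, members of the lists and families, and the 20 with the largest and 10 with the smallest SD at a mean of at least 20 CPM. The libraries, lists and families were chosen with earlier results of these data known, and the classes of the top 40 and the interferon, nucleic acid sensor and MHC class I lists after the gene table had been seen. Alternatives changed the length, the scaling, the filter, the pseudocount, the handling of rows, or left out a library. Listed genes such as Mx1 and Mx2 that had no row are not analysed here. Some named genes are not reported here. The other 3 libraries were not used here.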

Additional observations from a re-analysis of the deposited data

How the results depend on the processing

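Beside leaving out a library, 303 alternative values were computed, of which 161 stayed within the spread between replicates (for counts of genes, within 1.5 times) and 142 moved. Shares of counts, to which no length applies, stayed within it in 95 of 101. Most of these settings, summing repeated rows or leaving counts unrounded, barely change a share, so the 95 say little about stability. They also count among the 161. The 6 that moved did so without mtDNA-encoded genes in the total. Means that leave out 1 of 3 libraries lie within 1 SD by construction and say nothing about stability. Transcript length moved most values. With the union of exons, median levels became 277 CPM per kb for cardiomyocyte, 61.9 for fibroblast, 6.59 for mesothelial and 3.13 for endothelial genes. With the median length of protein-coding transcripts they became 371 for cardiomyocyte, 10.1 for mesothelial, 7.70 for endothelial, 19.9 for mural and 0.840 for leukocyte genes. The share of Actc1 became 46.7% with the union, 63.5% with the median transcript and 36.1% with no length, that of Tnni3 94.4%, 92.7% and 90.7%, that of Myl2 39.1% with the union and 67.1% with the median transcript, that of Myl3 86.1% with the union and 77.0% with no length, and that of Myh6 99.5% with the median transcript. Another gene led in 3 of 40 families with the union, 4 with the median transcript and 4 with no length. Without mtDNA-encoded genes in the total, the top 40 share became 17.0%. The common dispersion ran from 0.00608 without replicate 1 to 0.0122 without replicate 3. The median SD was 0.12 on the log2 scale with the trend on length removed, which was tried only after seeing the data. No paired analysis was possible because the result comes from 1 group and no test. Values of genes under 5 CPM are limited by counting.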

Other observations

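Other gene groups of the same libraries were also present. Inflammatory genes were uneven: of 24 cytokine and adhesion genes, 19 had at least 1 CPM and 10 had at least 20 CPM. The adhesion receptor Vcam1 made up 35.9% of their share of counts at 784, 648 and 646 CPM in replicates 1, 2 and 3, and the monocyte chemokine Ccl2 held 123, 129 and 121 CPM. The interleukin genes Il6 and Il1b stood at 16.8 ± 3.29 CPM and at 0 counts, and Tnf at 1.65 ± 0.0178 CPM. Immediate early genes, which cells switch on within minutes of a stimulus, were all above 1 CPM, 17 of 20 had at least 20 CPM, and the transcription factors Egr1, Junb and Fos held 299 ± 29.9, 286 ± 5.31 and 55.3 ± 4.03 CPM.

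All 15 genes of the unfolded protein and amino acid stress responses had at least 20 CPM, and they held 0.396%, 0.391% and 0.384% of the counts. Their regulators Atf4 and Ddit3 had 235 ± 4.19 and 214 ± 1.88 CPM per kb. Sensors of foreign nucleic acid, listed after the levels were known, had a median of 14.5 ± 0.911 CPM per kb, 8 of 9 had at least 1 CPM and 6 at least 20 CPM, with the RNA sensor Ddx58 at 72.7, 60.9 and 67.7 CPM, the DNA sensor Cgas at 2.195, 1.38 and 1.87 CPM and its partner Sting1 at 34.6, 35.4 and 41.8 CPM. The ribosomal protein genes held 6.98%, 8.18% and 7.65% of the counts, lowest in replicate 1, and 82 of 85 had at least 20 CPM. Rpl3l, the muscle form of ribosomal protein L3, was at 0.684 ± 0.2904 CPM per kb against 1057 ± 105 for Rpl3.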
